A study of Mus musculus with 33 samples.

Results

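The p53 pathway was described here through 10 genes: Trp53, which encodes p53, Cdkn2a, Mdm2, Ccng1, Eda2r, Phlda3, Sesn2, Trp53inp1, Zmat3 and Aen. They were chosen by name, with earlier results of these data known, and found as 10 of the 21671 gene rows of the expression table. RNA was measured by total RNA sequencing in 33 livers and liver tumours of C57BL/6 mice. The level of a gene is its RPKM, the number of its reads divided by the gene's length in kilobases and by a library total chosen by the authors.

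The mice formed 2 arms. In the first arm all mice were 6 to 8 weeks old, received AAV8-TBG-CRE intravenously and gave their livers at day 4. AAV8-TBG-CRE is an adeno-associated virus in which a hepatocyte promoter drives Cre recombinase, so the controls carried the virus too. Its groups of 5 livers were wild type, b-cat Ex3 (Ex3 in the text, an allele from which Cre removes exon 3 of the β-catenin gene), R26-lslMYC (MYC in the text, a MYC transgene behind a stop cassette that Cre removes) and both alleles together (MYC Ex3). The second arm held 3 tumour nodules from Alb-CreERT2 mice with R26-lslMYC, 3 nodules from mice that carried b-cat Ex3 as well, and 7 wild-type livers taken 4 days after intraperitoneal 4-OHT (4-hydroxytamoxifen). Alb-CreERT2 is a tamoxifen-dependent Cre under the albumin promoter. No treatment or age is given for the tumours in the sources used here, and whether the 4-OHT livers carried a Cre allele is not stated. Tumour growth, MYC, Cre driver and time since recombination cannot be told apart in the comparison of tumours with 4-OHT livers. Titles give each library its own animal number, so a replicate is 1 animal's library, and replicate numbers only name the libraries.

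p53 is a transcription factor that is held at a low level in unstressed cells and accumulates, mainly as protein, after DNA damage or oncogene activation. Cdkn2a encodes p19Arf, which blocks Mdm2, as well as the cell cycle inhibitor p16Ink4a. Mdm2, itself a p53 target, marks p53 for degradation, and the other p53 targets slow the cell cycle, limit growth or promote cell death. In liver, high MYC levels are known to engage this checkpoint, and its loss is common in liver tumours. The data here are RNA levels and hold no measurement of p53 protein.

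Short stretches in front of the genes are shown because a p53-type site there was the sequence feature some of the genes had in common. RefSeq windows on GRCm38, a later build than the mm9 named for these data, were searched from 250 bases before to 50 bases after each annotated start. Of the 10 genes, 8 matched a window, 10 windows in all. Trp53inp1 and Zmat3 had no entry. A p53 decamer (one of the paired 10-base units of a p53 binding site, which reads alike on both strands) was present without mismatch in windows of 4 genes, Trp53, Mdm2, Ccng1 and Aen, and in 8.36% of all 32851 windows. CACGTG, the E-box that MYC and related factors bind and that also reads alike on both strands, was in windows of 3 genes, Trp53, Eda2r and Aen, and in 7.15% of all windows. No window of these genes held 2 adjacent decamers with at most 2 mismatches, which 0.158% of all windows did. The 4 windows with a decamer are printed 5′ to 3′ up to 20 bases into the transcript, with the decamer in capitals and, in Trp53, CACGTG in capitals as well. The decamer begins 75 bases before the start in Trp53, 186 before it in Mdm2 and 185 before it in Ccng1, and 10 bases after the first annotated start in Aen. The other Aen window, not printed, holds the same decamer 121 bases before its own start. The CACGTG of Aen lies in that window.
Trp53, chr11:69580109-69580378, plus strand: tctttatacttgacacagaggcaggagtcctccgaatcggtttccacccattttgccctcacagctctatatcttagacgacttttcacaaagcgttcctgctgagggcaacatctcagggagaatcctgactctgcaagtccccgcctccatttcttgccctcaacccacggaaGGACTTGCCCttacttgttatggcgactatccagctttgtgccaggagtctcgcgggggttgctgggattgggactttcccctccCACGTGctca
Mdm2, chr10:117710739-117711008, minus strand: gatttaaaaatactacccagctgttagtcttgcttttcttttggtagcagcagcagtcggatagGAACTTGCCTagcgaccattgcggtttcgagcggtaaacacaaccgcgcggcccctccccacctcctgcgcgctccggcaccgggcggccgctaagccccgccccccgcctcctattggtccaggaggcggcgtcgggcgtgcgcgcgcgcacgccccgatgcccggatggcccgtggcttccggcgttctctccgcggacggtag
Ccng1, chr11:40755267-40755536, minus strand: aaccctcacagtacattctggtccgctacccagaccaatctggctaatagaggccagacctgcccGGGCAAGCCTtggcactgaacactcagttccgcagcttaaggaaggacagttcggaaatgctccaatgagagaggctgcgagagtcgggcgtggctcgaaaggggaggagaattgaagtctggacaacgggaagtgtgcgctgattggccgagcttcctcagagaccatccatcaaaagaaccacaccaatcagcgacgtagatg
Aen, chr7:78895677-78895946, plus strand: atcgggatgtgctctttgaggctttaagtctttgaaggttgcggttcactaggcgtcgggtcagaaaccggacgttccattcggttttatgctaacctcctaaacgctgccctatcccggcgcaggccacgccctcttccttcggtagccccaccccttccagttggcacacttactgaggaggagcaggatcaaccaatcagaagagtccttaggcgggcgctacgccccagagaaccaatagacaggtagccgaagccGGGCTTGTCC
These matches describe letters only. No binding was measured here, and a window without a match says nothing of sites elsewhere in the gene.

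A liver of the AAV arm gave 3.75 to 7.31 M reads in genes and a library of the tumour arm 6.65 to 9.82 M. The authors' library totals differ between the arms, so RPKM levels are set against each other only within an arm. Hepatocyte markers were abundant in every library, with a sum of 6 markers of 875 to 1550 RPKM in the AAV arm and 145 to 261 RPKM in the tumour arm. Keratinocyte markers (Krt5, Krt14 and Krt17) summed to more than 1 RPKM in 10 of the 20 AAV livers, 3 wild-type, 3 Ex3, 1 MYC and 3 MYC Ex3. Proliferation markers (Mki67, Top2a, Ccnb1, Cdk1 and Cdc20) summed to 3.2 to 12.6 RPKM in wild-type AAV livers, 8.46 to 104 RPKM in Ex3, 109 to 319 RPKM in MYC and 203 to 370 RPKM in MYC Ex3. The part of the proliferation markers in the results below was not tested. For keratin, fits with a keratin term and of keratin-free or keratin-bearing livers alone were run. The Myc row was 0.55 higher (log2) in MYC than in wild-type AAV livers (limma adjusted p 0.208). Whether transgene reads are counted in that row is not stated, so it does not check the label.

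In livers with MYC, RNA of Trp53 and of 7 response genes was higher than in wild-type AAV livers on day 4. These were Mdm2, Ccng1, Eda2r, Phlda3, Sesn2, Zmat3 and Aen. The largest rises were those of the death-linked genes Phlda3 and Eda2r, whose mean RPKM was 11.8 and 12.8 times that of wild type. With Ex3 added to MYC the same 8 genes were called against wild type. With Ex3 alone none was. A gene was called when limma gave a Benjamini-Hochberg adjusted p under 0.05 over all 13688 genes tested on log2(RPKM + 1), with at least 1 RPKM in 3 libraries. Of the 10 genes, 9 passed that filter and Cdkn2a did not. Of all genes tested, 22.3% were called in MYC against wild type, 16.9% as higher, and 24.1% in MYC Ex3 against wild type, 17.9% as higher. Because these are bulk livers, more expressing cells and more RNA per cell cannot be told apart. Endothelial markers summed to 81.3 to 145 RPKM in wild-type, 48.4 to 101 RPKM in MYC and 57.6 to 92.2 RPKM in MYC Ex3 livers, with 2 and 1 of the 5 markers called lower (3 and 4 called after rescaling), and their part was not tested.

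**Figure D1:**
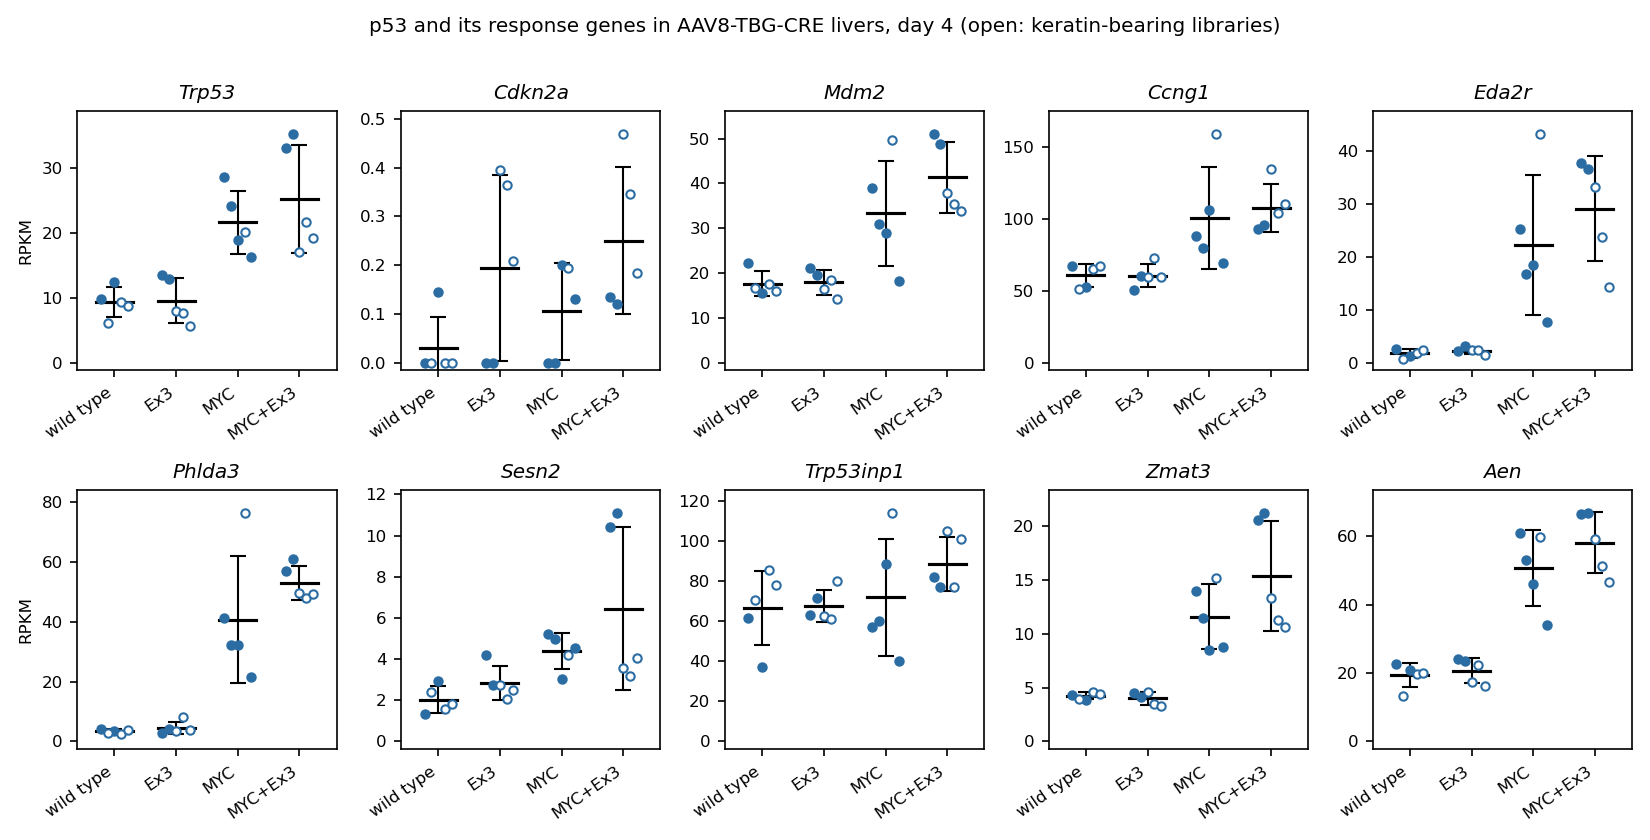
RPKM of the 10 genes in each of the 20 AAV livers by group, with the group mean as a line and its SD as a bar. Open circles are livers with keratinocyte markers above 1 RPKM. For Eda2r and Phlda3 every MYC and MYC Ex3 liver lies above every wild-type liver, and Cdkn2a rests on 0 to 2 reads a library.

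Trp53 RNA was 9.77, 6.09, 12.5, 9.42 and 8.81 RPKM in the wild-type livers and 13.5, 12.9, 8.02, 7.71 and 5.62 RPKM in the Ex3 livers. It was 28.6, 24.2, 18.9, 20.2 and 16.3 RPKM in the MYC livers and 33.2, 35.3, 17.1, 21.7 and 19.2 RPKM in the MYC Ex3 livers. Every liver with MYC lay above every liver without it, and the 2 highest were MYC Ex3 replicates 1 and 2, both without keratin. The log2 difference from wild type was 1.14 (SE 0.238, limma adjusted p 0.00163) in MYC and 1.32 (SE 0.238, adjusted p 0.000352) in MYC Ex3.

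Cdkn2a, which lies upstream of Mdm2 in the pathway, was barely sequenced in the AAV arm. The 5 libraries of a group together held 1 read in wild type, 5 in Ex3, 3 in MYC and 7 in MYC Ex3. No library held more than 2 reads, which leaves little room to detect a difference between the groups. With no filter on low values, limma gave 0.10 (adjusted p 0.57) for MYC, 0.28 (unadjusted p 0.0119, adjusted p 0.0712) for MYC Ex3 and 0.20 (unadjusted p 0.0559, adjusted p 0.999) for Ex3 against wild type. The row does not separate p19Arf from p16Ink4a.

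Mdm2, the feedback inhibitor of p53, was 22.3, 16.7, 15.6, 17.5 and 16 RPKM in wild-type livers and 21.2, 19.6, 16.4, 18.4 and 14.1 RPKM in Ex3 livers. It was 38.9, 31, 28.9, 49.6 and 18.2 RPKM in MYC livers and 51, 48.8, 37.9, 35.4 and 33.8 RPKM in MYC Ex3 livers. MYC replicate 5 fell inside the wild-type range, while all 5 MYC Ex3 livers lay above it. The log2 difference from wild type was 0.82 (SE 0.197, limma adjusted p 0.00481) in MYC and 1.18 (SE 0.197, adjusted p 0.000161) in MYC Ex3. Among the 10 keratin-free livers alone, with 4 MYC and 2 wild-type livers, the MYC difference was 0.57 with adjusted p 0.193.

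Ccng1 encodes cyclin G1, a p53 target that takes part in the feedback on p53, and was the most highly expressed called gene of the set per unit length. It was 67.1, 50.9, 52.7, 65.2 and 67.1 RPKM in wild-type livers and 88, 79.6, 106, 159 and 69.4 RPKM in MYC livers. In MYC Ex3 livers it was 92.8, 95.9, 135, 104 and 110 RPKM, and in Ex3 livers 50.3, 60.1, 59.5, 72.7 and 59.6 RPKM. The MYC and wild-type ranges did not overlap, but MYC replicate 5 stood only just above them. Relative to wild type, Ccng1 differed on the log2 scale by 0.67 (SE 0.171, limma adjusted p 0.00789) in MYC and 0.81 (SE 0.171, adjusted p 0.00152) in MYC Ex3. The MYC call did not hold among keratin-free livers alone, at 0.50 and adjusted p 0.0949.

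Sesn2 encodes sestrin 2, a stress-induced inhibitor of mTORC1 signalling that other stress factors also regulate. It was 1.33, 2.42, 2.96, 1.57 and 1.84 RPKM in wild-type, 4.22, 2.74, 2.73, 2.07 and 2.48 RPKM in Ex3 and 5.21, 5, 3.03, 4.21 and 4.56 RPKM in MYC livers. In MYC Ex3 livers it was 10.4 and 11.1 RPKM in replicates 1 and 2 and 3.55, 3.17 and 4.07 RPKM in replicates 3 to 5. The 2 high livers were keratin-free and the 3 others keratin-bearing. Against wild type the log2 difference was 0.85 (SE 0.268, limma adjusted p 0.0277) in MYC and 1.17 (SE 0.268, adjusted p 0.00311) in MYC Ex3. The MYC call was the least stable of the 8. It was lost among keratin-free livers (0.82, adjusted p 0.0823), with a term for keratin (0.65, adjusted p 0.0504), and when MYC replicate 1, 2 or 4 or wild-type replicate 1, 4 or 5 was left out, with adjusted p up to 0.0686.

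Eda2r encodes a receptor of the tumour necrosis factor receptor family that binds ectodysplasin A2. It was 2.58, 0.685, 1.17, 1.85 and 2.4 RPKM in wild-type livers and 2.11, 3.11, 2.33, 2.31 and 1.48 RPKM in Ex3 livers. It was 25.3, 16.8, 18.4, 43.3 and 7.65 RPKM in MYC livers and 37.9, 36.6, 33.2, 23.7 and 14.3 RPKM in MYC Ex3 livers. Even the lowest liver with MYC, at 7.65 RPKM, exceeded the highest without it. The log2 difference from wild type was 2.95 (SE 0.337, limma adjusted p 6.31e-06) in MYC and 3.44 (SE 0.337, adjusted p 8.85e-07) in MYC Ex3.

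Phlda3 encodes a pleckstrin-homology protein that restrains AKT. It was 4.31, 2.91, 3.6, 2.52 and 3.89 RPKM in wild-type livers and 2.79, 4.28, 3.53, 8.04 and 3.87 RPKM in Ex3 livers. In MYC livers it was 41.4, 32.3, 32.1, 76.4 and 21.6 RPKM and in MYC Ex3 livers 57, 60.9, 49.8, 48 and 49.4 RPKM. The groups with and without MYC did not overlap, and the MYC Ex3 livers lay close together while the MYC livers spread over a range of 3.54 times. On the log2 scale Phlda3 rose by 3.12 (SE 0.253, limma adjusted p 3.52e-07) in MYC and 3.61 (SE 0.253, adjusted p 7.96e-08) in MYC Ex3.

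Aen encodes a nuclease linked to apoptosis. It was 22.6, 13.4, 20.9, 19.6 and 20 RPKM in wild-type livers and 24, 23.6, 17.3, 22.3 and 16.3 RPKM in Ex3 livers. It was 60.9, 53.1, 45.9, 59.9 and 33.9 RPKM in MYC livers and 66.4, 66.8, 59.3, 51.4 and 46.6 RPKM in MYC Ex3 livers. All livers with MYC lay above all without it, by 1.34 (SE 0.168, limma adjusted p 1.43e-05) in MYC against wild type and 1.55 (SE 0.168, adjusted p 2.14e-06) in MYC Ex3 on the log2 scale. Zmat3 encodes an RNA-binding zinc finger protein that acts downstream of p53. Its levels were 4.32, 3.95, 3.88, 4.6 and 4.43 RPKM in wild-type, 4.49, 4.14, 4.63, 3.48 and 3.25 RPKM in Ex3 and 14, 11.5, 8.48, 15.2 and 8.73 RPKM in MYC livers. They reached 20.5, 21.2, 13.3, 11.3 and 10.6 RPKM in MYC Ex3 livers, with the 2 keratin-free livers highest. Livers with and without MYC again did not overlap, and Zmat3 rose by 1.23 (SE 0.189, limma adjusted p 8.4e-05) in MYC and 1.59 (SE 0.189, adjusted p 4.33e-06) in MYC Ex3.

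Trp53inp1, whose product promotes p53 phosphorylation and autophagy, was the tested gene of the set that did not pass. It was 61.5, 70.5, 37.3, 85.4 and 78.2 RPKM in wild-type livers and 56.9, 59.9, 88.6, 114 and 39.9 RPKM in MYC livers, and the ranges overlapped widely. In MYC Ex3 livers it was 82.1, 77.1, 105, 77 and 101 RPKM and in Ex3 livers 62.9, 71.6, 62.6, 61.3 and 80 RPKM. The log2 difference from wild type was 0.07 (95% interval -0.41 to 0.55, limma adjusted p 0.871) in MYC and 0.45 (-0.03 to 0.93, adjusted p 0.168) in MYC Ex3.

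The median difference over the 9 tested genes was 1.14 in MYC against wild type, beside 0.07 over all genes tested, and 1.32 in MYC Ex3, beside 0.05. Groups did not overlap for 7 of the 9 genes in the MYC comparison and for 8 in the MYC Ex3 comparison. Over all genes tested that share was 13.3% and 17.2%. Rescaling each library by its median ratio left the direction and the call of all 8 genes as they were in both comparisons. It lowered the share of higher genes among all calls from 75.9% to 59.1% in MYC and from 74.4% to 61.2% in MYC Ex3. The authors' deposited table also called these 8 genes in both comparisons and none for Ex3, with log2 fold changes of 2.93 for Eda2r and 3.02 for Phlda3 in MYC.

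Ex3 without MYC gave no call in the set. The 9 differences from wild type ran from -0.07 for Zmat3 to 0.35 for Sesn2, and limma called 0 of them, beside 0.132% of all genes (744 genes had an unadjusted p under 0.05). The widest interval, that of Eda2r, was -0.41 to 1.00. No gene of the set had ranges apart, which 1.59% of all genes did. Against Ex3 alone, MYC Ex3 livers had the 8 genes higher again, with 21.1% of all genes called and 16.4% called higher. The 2 groups did not overlap for 7 of the 9 genes and for 20.3% of all genes. That difference was 3.36 for Phlda3 (SE 0.253, adjusted p 1.47e-07), 3.14 for Eda2r (SE 0.337, adjusted p 4.26e-06) and 0.82 for Sesn2 (SE 0.268, adjusted p 0.0348). The Sesn2 call was lost when Ex3 replicate 2, 3, 4 or 5 or MYC Ex3 replicate 1 or 2 was left out. This comparison shares its MYC Ex3 livers with the one against wild type.

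Between MYC Ex3 and MYC livers all 9 differences were positive, 0.15 for Ccng1 to 0.49 for Phlda3 and Eda2r, with a median of 0.36 beside -0.01 over all genes. Most pairs of response genes were positively correlated within groups, so the 9 signs are not independent. MYC replicate 5 was the lowest MYC liver for Trp53, Mdm2, Ccng1, Eda2r, Phlda3, Trp53inp1 and Aen, but not for Sesn2 or Zmat3. None passed limma, with adjusted p 1 throughout and a smallest unadjusted p of 0.0655 for Phlda3, while 0.19% of all genes were called. No gene of the set had ranges apart, which 0.679% of all genes did. In all genes 461 had an unadjusted p under 0.05. The intervals allow a Phlda3 difference of -0.03 to 1.02 and a Trp53 difference of -0.31 to 0.68. The interaction of MYC and Ex3 likewise called 0 of the 9 genes and 0% of all genes (132 with an unadjusted p under 0.05). Its values ran from -0.03 for Sesn2 to 0.43 for Zmat3.

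**Figure D2:**
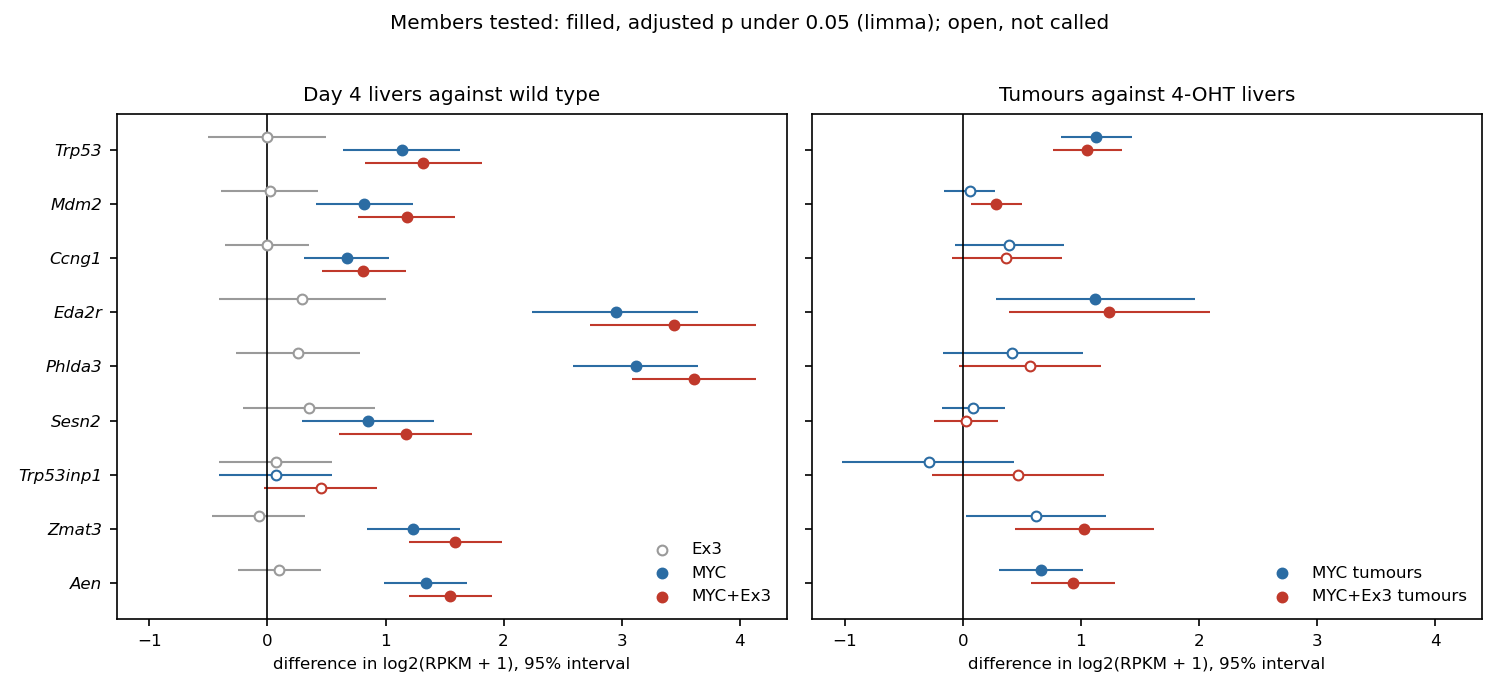
Log2 differences of log2(RPKM + 1) with 95% intervals for the 9 tested genes in the comparisons of the AAV livers and of the tumours. Filled symbols passed limma at adjusted p under 0.05. In the AAV livers 8 genes passed in both MYC comparisons, and in the tumours 3 passed with MYC and 5 with MYC Ex3.

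Most pairs of response genes were positively correlated from animal to animal within the AAV groups. After each group mean was removed, 25 of the 28 pairs among the 8 response genes had a positive Pearson r over 20 livers, with a median of 0.45. Treated the same way, all pairs of the 13688 tested genes had a positive r in 53.4% and a median of 0.04. An r of at least 0.5 either way was found in 14 of the 28 pairs and in 19.3% of all pairs, so such values are common in these libraries. After Benjamini-Hochberg adjustment over 28 pairs, 12 pairs passed a permutation test within groups (100000 draws, two-sided). The strongest was Mdm2 with Eda2r (r 0.86, permutation p 0.00023, adjusted 0.00215; rho 0.84, adjusted 0.00126). The pair Ccng1 and Sesn2 ran the other way (r -0.51, adjusted permutation p 0.0149). Without the 2 livers farthest from the median of the first gene, 7 pairs passed and the median r was 0.26. Mdm2 with Eda2r then stood at 0.70, adjusted permutation p 0.0249. No pair passed among the 10 keratin-free livers, where the median r was 0.62, or among 9 keratin-bearing livers, where it was 0.29. The groups there were so small that few orderings existed, and a pair could hardly pass whatever its r. Mdm2 with Eda2r, at r 0.94 among keratin-free livers, had an adjusted permutation p of 0.195. The 9 keratin-bearing livers held none of the MYC group. All genes of 1 liver share its library and depth.

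**Figure D3:**
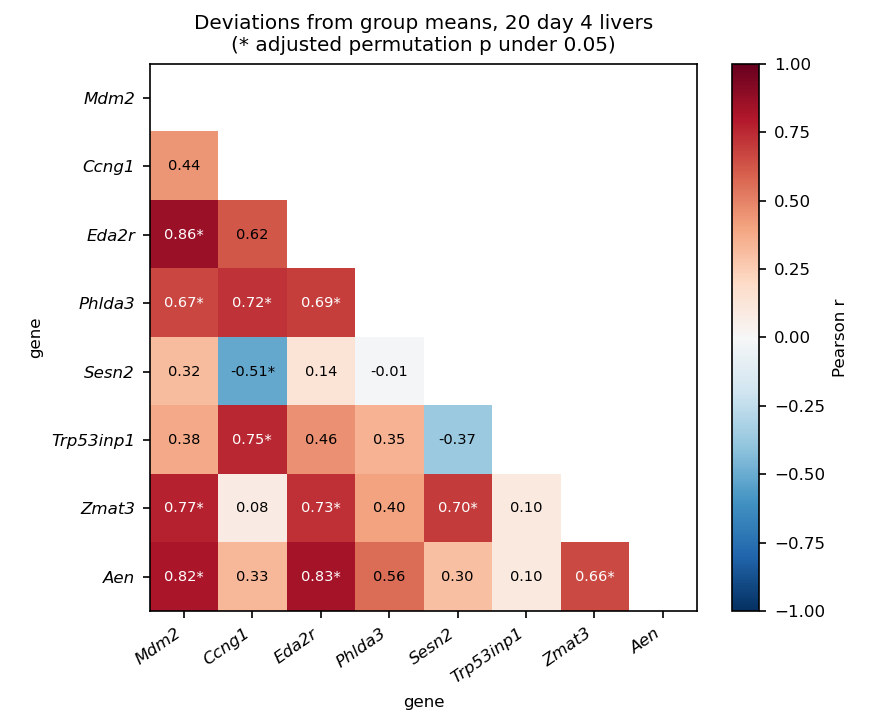
Pearson r between the 8 response genes over 20 AAV livers, from log2(RPKM + 1) minus the group mean; a star marks pairs with an adjusted permutation p under 0.05. Mdm2 with Eda2r, Eda2r with Aen and Mdm2 with Aen have the highest values, from 0.82 to 0.86, and Ccng1 with Sesn2 is negative.

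Over the 20 AAV libraries without removing group means, genes whose pattern was most like Mdm2 included Dancr (Pearson r 0.96) and Lzic (0.959), among 9117 genes compared. Those most like Ccng1 were Nudcd2 (0.973), its annotated neighbour, Taf9 (0.961) and Rwdd1 (0.959). Over the 13 libraries of the tumour arm, among 5258 genes, the genes most like Mdm2 were Ric8 (0.869), Fbxw9 (0.861) and Fgfrl1 (0.857). For Ccng1 they were Commd3 (0.932), Lzts3 (0.931) and Dpp7 (0.929). These are descriptions of libraries that share group differences and depth.

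In the tumours Trp53 RNA was again higher, and part of the response genes were called with it. Against 4-OHT livers, limma called Trp53, Eda2r and Aen as higher in MYC tumours and Trp53, Mdm2, Eda2r, Zmat3 and Aen in MYC Ex3 tumours. Of all 11854 genes tested, 49.8% were called in MYC tumours, 36.2% as higher, and 60.6% in MYC Ex3 tumours, 42.3% as higher. The 3 of 9 and 5 of 9 genes called here are thus not far from the shares over all genes. Eda2r, counted in both, passed the filter only through the tumours, because no 4-OHT liver reached 1 RPKM of it. The ranges of tumours and livers were apart for 1 of the 9 genes in MYC tumours, Trp53, and for 4 in MYC Ex3 tumours, beside 35.2% and 56.1% of all genes. The median over the 9 genes was 0.42 and 0.57, beside 0.19 and 0.23 over all genes. Rescaling by the median ratio brought the median over all genes to 0.01 and 0.04 and lowered the share of higher calls from 72.6% to 53.4% and from 69.7% to 55.2%.

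**Figure D4:**
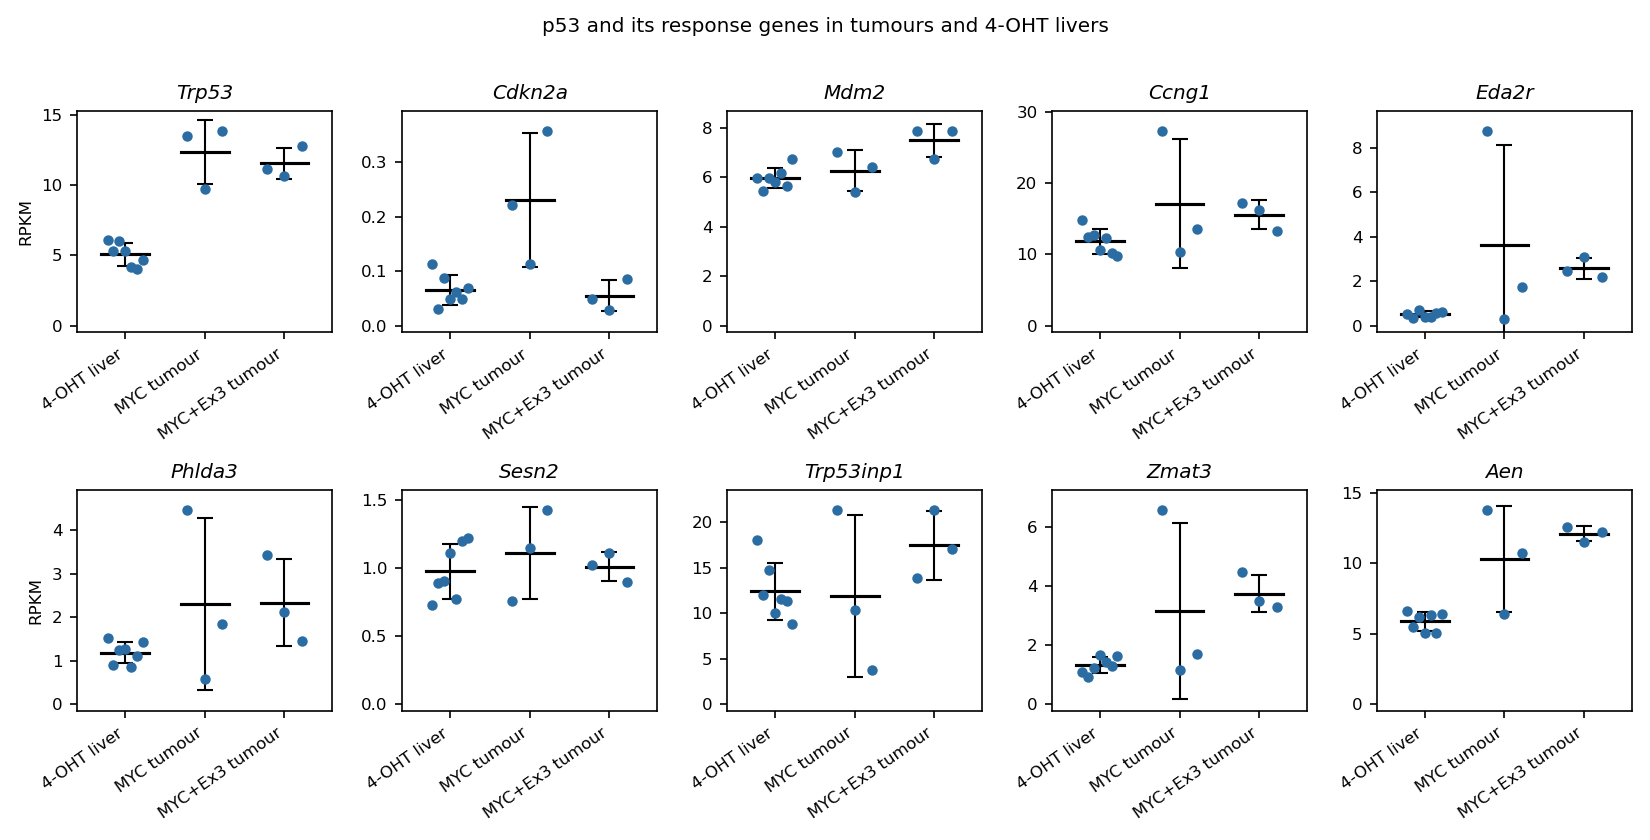
RPKM of the 10 genes in the 7 4-OHT livers and the 6 tumours by group, with the group mean as a line and its SD as a bar. Trp53 lies above every 4-OHT liver in all 6 tumours, and Eda2r, Phlda3 and Zmat3 spread widely among the 3 MYC tumours.

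Trp53 was 4.02 RPKM in the lowest, 5.32 RPKM in the median and 6.1 RPKM in the highest 4-OHT liver. It was 13.5, 9.75 and 13.9 RPKM in the MYC tumours and 11.2, 10.7 and 12.8 RPKM in the MYC Ex3 tumours. All 6 tumours lay above all 7 livers. The log2 difference was 1.13 (SE 0.139, limma adjusted p 2.74e-05) in MYC and 1.05 (SE 0.139, adjusted p 2.06e-05) in MYC Ex3 tumours. Relative to the median of all genes these were 0.94 and 0.82.

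Cdkn2a was low in all 13 libraries of the arm and did not pass the filter. The 4-OHT livers held 1 to 4 reads each, 0.0313, 0.0619 and 0.113 RPKM at the lowest, median and highest. The MYC tumours held 6, 5 and 15 reads, 0.221, 0.113 and 0.358 RPKM, and the MYC Ex3 tumours 2, 1 and 3 reads, 0.0484, 0.0295 and 0.0855 RPKM. The 3 MYC tumours lay at or above the highest liver, and the MYC Ex3 tumours overlapped the livers. With no filter on low values, limma gave 0.20 (adjusted p 0.00497) for MYC tumours against 4-OHT livers. The authors' deposited table did not call Cdkn2a there, with a log2 fold change of 1.26 and adjusted p 0.0563. Limma without the filter gave -0.02 (adjusted p 0.823) for MYC Ex3 tumours and -0.22 (adjusted p 0.0584) for MYC Ex3 against MYC tumours.

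Mdm2 was 5.45, 5.96 and 6.73 RPKM at the lowest, median and highest of the 4-OHT livers. It was 7.01, 5.4 and 6.42 RPKM in MYC tumours and 7.89, 6.73 and 7.88 RPKM in MYC Ex3 tumours. The MYC tumours straddled the liver range and gave a difference of 0.06 (95% interval -0.16 to 0.27, limma adjusted p 0.652). The MYC Ex3 tumours lay at or above its upper end, by 0.28 (SE 0.0994, adjusted p 0.0227). This small difference is close to the shift of all genes. After rescaling it was 0.09 (adjusted p 0.442), and it also lost its call without MYC Ex3 tumour 1 (0.25, adjusted p 0.0904) or 3 (0.25, adjusted p 0.0883).

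Eda2r was 0.338, 0.515 and 0.701 RPKM at the lowest, median and highest of the 4-OHT livers. No liver thus reached the 1 RPKM of the filter, and Eda2r entered the test through the tumours, where it was high. It was 8.78, 0.305 and 1.76 RPKM in the MYC tumours and 2.44, 3.1 and 2.2 RPKM in the MYC Ex3 tumours. MYC tumour 1 was 17.2 times the mean of the livers and MYC tumour 2 lay below all of them, while the MYC Ex3 tumours were alike. The log2 difference was 1.12 (SE 0.396, limma adjusted p 0.0291) in MYC tumours, 0.33 (adjusted p 0.195) without tumour 1 and 1.79 (adjusted p 0.000442) without tumour 2. That call was lost in 5 of 7 other alternatives, with sample weights (0.54, adjusted p 0.191), no filter (adjusted p 0.0582), a sex term (adjusted p 0.0656) and the 4-OHT livers with S14 (adjusted p 0.0869) or S15 titles alone (adjusted p 0.145). In MYC Ex3 tumours the difference was 1.24 (SE 0.396, adjusted p 0.0142), and 1.14 (adjusted p 0.0574) without tumour 2 of that group. Against the S14 or S15 livers alone the MYC Ex3 call was lost as well, with adjusted p 0.0501 and 0.0923.

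Aen was 5.07, 6.21 and 6.62 RPKM at the lowest, median and highest of the 4-OHT livers, 13.8, 6.38 and 10.7 RPKM in MYC tumours and 12.6, 11.5 and 12.2 RPKM in MYC Ex3 tumours. Only MYC tumour 2 fell inside the liver range. The log2 difference was 0.66 (SE 0.166, limma adjusted p 0.00463) in MYC and 0.93 (SE 0.166, adjusted p 0.00025) in MYC Ex3 tumours. Zmat3 was 0.942, 1.29 and 1.67 RPKM in the livers on the same scale, 6.6, 1.17 and 1.72 RPKM in MYC tumours and 4.47, 3.5 and 3.29 RPKM in MYC Ex3 tumours. MYC Ex3 tumours lay above all livers, by 1.03 (SE 0.276, limma adjusted p 0.00504), a call lost against the 3 4-OHT livers whose titles carry S15 (0.95, adjusted p 0.0589). For MYC tumours the value was 0.62 (adjusted p 0.0761).

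The other 4 genes did not pass in either tumour group. Ccng1 was 9.84, 12.3 and 14.8 RPKM at the lowest, median and highest of the 4-OHT livers, 27.4, 10.3 and 13.6 RPKM in MYC tumours and 17.2, 16.3 and 13.3 RPKM in MYC Ex3 tumours. Phlda3 was 0.863, 1.25 and 1.52 RPKM in the livers, 4.48, 0.597 and 1.86 RPKM in MYC tumours and 3.43, 2.12 and 1.46 RPKM in MYC Ex3 tumours. Both genes were highest in MYC tumour 1 and, of all tumours, lowest in MYC tumour 2. Sesn2 was 0.731, 0.908 and 1.22 RPKM in the livers, 0.758, 1.15 and 1.43 RPKM in MYC tumours and 1.02, 1.11 and 0.901 RPKM in MYC Ex3 tumours, so the 3 groups overlapped. Trp53inp1 was 8.87, 11.6 and 18.1 RPKM in the livers, 21.4, 10.4 and 3.8 RPKM in MYC tumours and 13.9, 21.4 and 17.1 RPKM in MYC Ex3 tumours. MYC tumour 3 was the lowest and MYC tumour 1 among the highest of all libraries. The differences from 4-OHT livers over these 4 genes ran from -0.29 for Trp53inp1 to 0.42 for Phlda3 in MYC tumours and from 0.03 for Sesn2 to 0.57 for Phlda3 in MYC Ex3 tumours. With sample weights, or with only the 2 groups in the fit, 3 of them were called in MYC Ex3 tumours. These were Ccng1 (adjusted p 0.00659 and 0.0221), Phlda3 (0.00334 and 0.00578) and Trp53inp1 (0.0161 and 0.0386). Ccng1 (adjusted p 0.0264) and Phlda3 (0.0179) also passed there when MYC tumour 1 was left out of the shared spread, and Phlda3 (0.025) when MYC tumour 2 was. Shares of all genes called in these alternative fits are not given here. The authors' deposited table called Trp53, Eda2r (log2 2.17, adjusted p 0.000231), Zmat3 (log2 0.94, adjusted p 0.0448) and Aen in MYC tumours. For MYC Ex3 tumours the authors' deposited table called Trp53, Eda2r (log2 2.09, adjusted p 1.35e-17), Zmat3, Aen and Phlda3 (adjusted p 0.0182). It did not call Mdm2 (0.11, adjusted p 0.401). Without MYC tumour 1, Trp53inp1 was called lower in MYC tumours (-0.82, adjusted p 0.0262), and Phlda3 stood at -0.03.

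In these genes the MYC tumours differed more among themselves than the MYC Ex3 tumours did. Whether this holds over all genes was not tested. In MYC tumour 1, 9 of the 10 genes lay above every 4-OHT liver. Among them were Cdkn2a on 6 reads and Mdm2 at 7.01 RPKM, beside 6.73 RPKM in the highest liver. In MYC tumour 2, 1 gene lay above and 3 below every liver, and in tumour 3 these counts were 7 and 1. In the MYC Ex3 tumours 7, 7 and 5 genes lay above every liver, and 0, 1 and 0 below. The shares of all genes above or below every liver were not counted for single tumours. As whole groups, MYC and MYC Ex3 tumours were apart from the livers for 35.2% and 56.1% of all genes. That is another measure, since all 3 tumours must lie on the same side, so it is no background for the counts of single tumours. Leaving out MYC tumour 2 raised the calls in MYC tumours from 3 to 6, adding Ccng1 (0.67, adjusted p 0.018), Phlda3 (0.86, adjusted p 0.0086) and Zmat3 (0.97, adjusted p 0.00922). The share of all genes called without MYC tumour 2 is not given here. Macrophage markers summed to 31.9 RPKM in MYC tumour 1, 79 RPKM in tumour 2 and 69 RPKM in tumour 3, to 44.4 to 50.7 RPKM in the MYC Ex3 tumours and to 74.1 to 102 RPKM in the 4-OHT livers. Proliferation markers summed to 49.6, 77 and 85.6 RPKM in the MYC tumours. The part of either in the result was not tested.

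**Figure D5:**
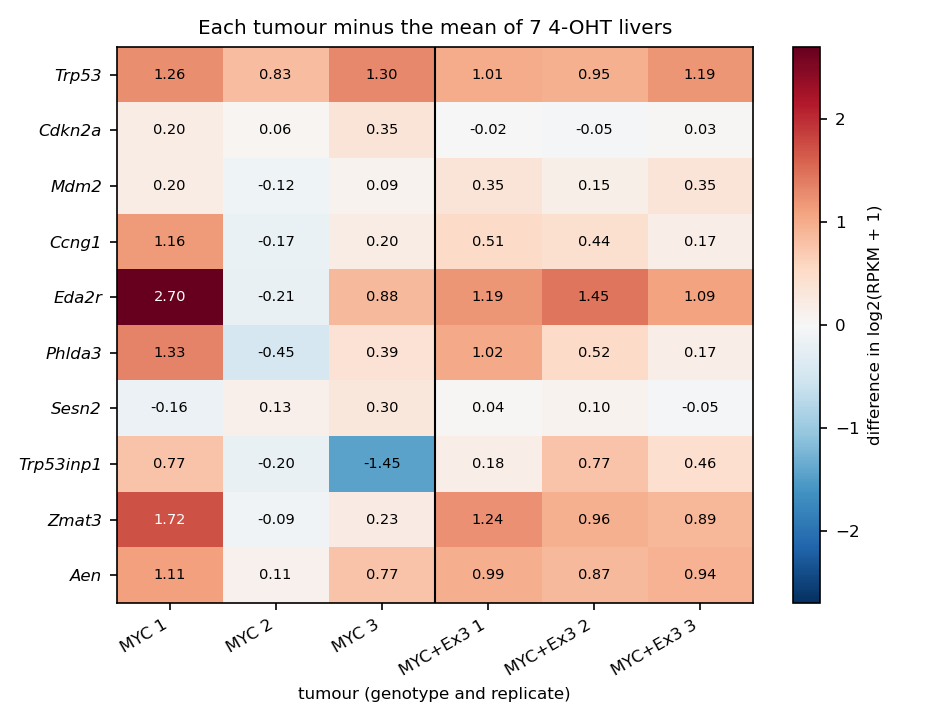
Heat map of log2(RPKM + 1) minus the mean of the 7 4-OHT livers for the 10 genes in each of the 6 tumours. MYC tumour 1 lies above every 4-OHT liver for 9 genes, with Cdkn2a and Mdm2 at only 0.20 each, and MYC tumour 2 only for Trp53. The 3 MYC Ex3 tumours resemble each other.

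MYC Ex3 and MYC tumours were compared directly as well. Limma called 0 of the 9 genes, beside 4.13% of all genes (2089 genes had an unadjusted p under 0.05). The ranges were apart for 0 of the 9, beside 16.3% of all genes. The differences ran from -0.08 for Trp53 to 0.76 for Trp53inp1, whose 95% interval was -0.10 to 1.62. Without MYC tumour 1, Eda2r (0.91, adjusted p 0.0382), Trp53inp1 (1.30, adjusted p 0.0301) and Zmat3 (0.96, adjusted p 0.0034) were called as higher in MYC Ex3 tumours. The share of all genes called without that tumour is not given here.

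The rise against each arm's own controls was smaller in tumours than in AAV livers for a few response genes. This difference of effects was fitted over all 33 libraries after rescaling, a comparison added after the data had been seen. For MYC, Phlda3 differed by -2.52 (SE 0.432, limma adjusted p 0.000445) and Mdm2 by -0.83 (SE 0.242, adjusted p 0.0356), while 6.33% of all genes were called, 3.8% as lower. For MYC Ex3, Phlda3 differed by -2.79 (SE 0.432, adjusted p 2.37e-05), Mdm2 by -0.94 (SE 0.242, adjusted p 0.006) and Sesn2 by -1.06 (SE 0.31, adjusted p 0.0152). Of all genes 19.4% were called there, 10.1% as lower. Trp53 differed by 0.02 (95% interval -0.52 to 0.55) for MYC and by -0.25 (-0.78 to 0.29) for MYC Ex3. Eda2r differed by -1.35 (adjusted p 0.187) and -1.57 (adjusted p 0.0605). Without MYC tumour 1 the MYC value was -2.31 (adjusted p 0.00182), and for MYC Ex3 the call was gained with RPKM as deposited (-2.19, adjusted p 0.00732) and without AAV MYC Ex3 replicate 5 (-1.78, adjusted p 0.0347). With RPKM as deposited the arms keep the authors' different library totals, so the 1 RPKM added before the logarithm does not weigh alike in them. Tissue, time, Cre driver and control treatment differ between the arms and cannot be told apart here. For MYC the Mdm2 call was lost, with adjusted p up to 0.0828, when AAV MYC replicate 1, wild-type AAV replicate 3 or 5, 4-OHT liver 7 or MYC tumour 2 or 3 was omitted. It was also lost with RPKM as deposited (-0.76, adjusted p 0.0947) and among keratin-free libraries (-0.66, adjusted p 0.138). Without MYC tumour 1, 5 genes were called. Sesn2 lost its call for MYC Ex3 without MYC Ex3 tumour 3 (-0.97, adjusted p 0.0576), and without AAV MYC Ex3 replicate 5 the called genes numbered 5. Shares of all genes called without these libraries are not given here.

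Other genes of the pathway were grouped by role, leaving out the 10 described above. Of 11 regulators of p53, 9 were tested. In AAV livers 6 were higher in MYC and 6 in MYC Ex3 against wild type, with a median of 0.45 and 0.62 beside 0.07 and 0.05 over all genes, and none was lower. Over all genes 16.9% and 17.9% were higher in these comparisons. Chek1, a DNA damage checkpoint kinase that is also high in dividing cells, rose from 0.457 to 7.66 RPKM in MYC livers (log2 2.37, SE 0.318, limma adjusted p 2.36e-05), and Chek2 by 1.73 (SE 0.266, adjusted p 8.89e-05). The wild-type mean of Chek1 lay under the 1 RPKM of the filter, which Chek1 may have passed through the groups where it was high. In tumours 7 of the 9 were higher with MYC and 9 with MYC Ex3, or 6 and 7 after rescaling, beside 36.2% and 42.3% of all genes. Their median was 0.65 and 0.90, beside 0.19 and 0.23. The kinase genes Chek1 and Atr led in both, at 1.49 and 1.13 in MYC tumours and 1.64 and 1.29 in MYC Ex3 tumours. Proliferation markers were higher in the same groups, and their part was not tested.

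Of 9 further cell cycle and feedback targets, 3 were higher and 1 lower in MYC livers, 1 and 1 after rescaling, and 4 higher and 1 lower in MYC Ex3 livers, beside 16.9% and 17.9% of all genes higher. Ppm1d is on this list and on that of the regulators, so its calls as higher are counted in both, in livers and in tumours. Pvt1, a long noncoding RNA next to Myc, rose by 1.65 in MYC and 1.88 in MYC Ex3 livers, and Ccng2, encoding cyclin G2, fell by 0.61 and 0.57. Btg2, an antiproliferative gene, was higher by 0.80 in MYC livers with adjusted p 0.0495. Cdkn1a, which encodes the cell cycle inhibitor p21, averaged 19.2 ± 14 RPKM (SD, n = 5) in wild-type livers, where single livers ran from 1.82 to 40 RPKM. It averaged 41.9 ± 19.2 RPKM in MYC and 44.0 ± 12.8 RPKM in MYC Ex3 livers. Those ranges overlapped, and limma gave 1.41 (SE 0.53, adjusted p 0.061) for MYC and 1.54 (SE 0.53, adjusted p 0.0399) for MYC Ex3. Without wild-type replicate 2, the lowest, the MYC Ex3 value was 0.94 (adjusted p 0.104), and omitting wild-type replicate 3 or MYC Ex3 replicate 1, 2, 3 or 4 also ended that call. So did a sex term (1.19, adjusted p 0.0967) and keratin-bearing livers alone (1.38, adjusted p 0.282). The call was also lost with no filter (adjusted p 0.0652) and with only the groups compared (adjusted p 0.0668). In MYC livers Cdkn1a gained a call without wild-type replicate 4 (1.78, adjusted p 0.0216) or MYC replicate 5 (1.61, adjusted p 0.0415). It also gained one among keratin-free livers alone (1.02, adjusted p 0.0368). In tumours 4 of the 9 were higher with MYC and 5 with MYC Ex3, 3 higher and 1 lower after rescaling, which is not far from the 36.2% and 42.3% of all genes. Cdkn1a was higher by 0.99 (SE 0.314, limma adjusted p 0.0175) in MYC and 1.39 (SE 0.314, adjusted p 0.00157) in MYC Ex3 tumours. The MYC tumour call was lost without tumour 1 (0.89, adjusted p 0.0559), with sample weights (0.85, adjusted p 0.183) and against the 4-OHT livers with S14 titles (0.55, adjusted p 0.087).

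Of 10 further cell death targets, 5 were higher and none lower in both MYC and MYC Ex3 livers, with a median of 0.52 in each, beside 16.9% and 17.9% of all genes. Bax, a mitochondrial pore protein, rose from 18.8 to 52.8 RPKM in MYC livers (log2 1.45, SE 0.255, limma adjusted p 0.000334), and Bbc3, which encodes PUMA, by 1.27. In each tumour group 5 were higher and 1 lower, or 4 and 2 after rescaling, near the 36.2% and 42.3% of all genes that were higher. Pidd1, whose product activates caspase 2, was higher by 0.94 and 1.48 in MYC and MYC Ex3 tumours. It averaged 0.567 RPKM in 4-OHT livers, under the 1 RPKM of the filter, and may have passed it through the tumours. Fas, a death receptor, fell by 0.59 and 1.02 there. Macrophage and endothelial markers were lower in these tumours too, the latter at 21.9 to 25.7 RPKM in MYC and 14.5 to 16.3 RPKM in MYC Ex3 tumours against 26.8 to 41.2 RPKM in 4-OHT livers. Their part in the fall of Fas was not tested.

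Of 12 repair and metabolism targets, 11 were tested. In AAV livers 4 were higher with MYC and 5 with MYC Ex3, or 4 and 4 after rescaling, and none was lower, beside 16.9% and 17.9% of all genes higher. Ddit4, an mTORC1 inhibitor, rose by 1.44 and 1.41 and Fdxr, a mitochondrial reductase, by 0.78 and 0.86. In MYC tumours 2 were higher and 1 lower, or 1 and 2 after rescaling, and in MYC Ex3 tumours 4 were higher and 1 lower, or 3 and 2. As shares these lie below the 36.2% and 42.3% of all genes that were higher. Tap1, an antigen peptide transporter, fell by 1.04 and 1.38.

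Of 12 genes at the Cdkn2a locus or known to regulate it, 3 were higher and 1 lower in MYC livers and 3 higher in MYC Ex3 livers, near the 16.9% and 17.9% of all genes that were higher. Mtap, the metabolic gene beside Cdkn2a, rose from 16.2 to 46.6 RPKM in MYC livers (log2 1.41, SE 0.197, limma adjusted p 3.35e-05), and E2f1 by 1.55. Cdkn2b, on the other side, averaged 1.16 RPKM with MYC and 1.08 RPKM in wild type (0.03, 95% interval -0.39 to 0.46). In tumours 11 of these genes were tested, with 5 higher and 3 lower for MYC and 7 higher and 1 lower for MYC Ex3, or 4 and 3 and 7 and 2 after rescaling. Of all genes 49.8% and 60.6% were called there, 36.2% and 42.3% as higher. Mtap was higher by 1.16 and 1.30, and Tbx3, a repressor of Cdkn2a, fell by 1.33 in MYC tumours. Against MYC tumours, MYC Ex3 tumours had Tbx3 higher by 2.27 (SE 0.213, limma adjusted p 1.95e-05) and the polycomb gene Cbx7 by 1.39 (SE 0.248, adjusted p 0.00511), while Cbx8 fell by 1.07 (adjusted p 0.0498). Ex3 alone gave 0 calls in each of these lists.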

How the data were processed

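Total RNA of 20 AAV livers and of 13 tumours and 4-OHT livers was sequenced from strand-specific libraries, per the labels' protocols. The authors' deposited values are RPKM, 1 column per library. Per the submitters' processing notes the tools were TopHat2 2.0.8, TopHat, SAMtools, featureCounts 1.4.5-p1 and DESeq2, and the build mm9. Annotation, duplicate removal and whether counting used strand are not given in the sources used here. In GENCODE M21 no exon of the 10 genes overlaps another gene. The authors' deposited table also gives log2 fold changes and adjusted p-values, which were used only to set beside the values here. No column belonged to another series.

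RPKM values of a gene were whole multiples of 1 read, which gave the depth. Whole reads were recovered for 100.0% of 20485 genes above 0, within a tolerance of 0.001, and 1186 genes were at 0. Precision at low counts is limited by counting error, which replicates' spread includes.

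Each arm was fitted with limma 3.58.1 in R 4.3.3 on log2(RPKM + 1), two-sided and with eBayes set to follow the trend of the variance, over genes with at least 1 RPKM in 3 libraries, with Benjamini-Hochberg adjustment in each of 9 comparisons. Log2 differences are on that scale and understate changes of low genes. The 2 differences of effects were added after the data were seen. The fit and the permutation test were tested on simulated data. Alternatives were a pseudocount of 0.1, no filter or one at 5 RPKM, rescaling by median ratio, sample weights, a sex term read from Xist and Ddx3y, keratin-free or keratin-bearing livers or a keratin term, subsets of 4-OHT livers, the compared groups alone, and leaving out each library.

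The 10 genes and the lists were chosen with earlier results of these data known. Named throughout were the 10 genes. From the wider lists at most 2 called genes each way were named, with Cdkn1a always, Cdkn2b and Mtap as neighbours of Cdkn2a, and Myc and Ctnnb1 as allele checks (Ctnnb1 in MYC against wild type -0.02, a gene total that cannot show loss of exon 3). The 3 most alike genes were sought among tested genes with a mean of at least 5 RPKM, for Mdm2 and Ccng1 but not for Cdkn2a, which was not tested, and 1 of them is not reported here. No DNA was read from the libraries. Promoter windows came from RefSeq.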

Additional observations from a re-analysis of the deposited data

Results flagged for a closer look

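Of 50 combinations of a gene with a group of 5 or 7 libraries, 3 held a library far from the others of its group by Dixon's criterion, which flags about 1 in 20 groups by chance. Wild-type AAV liver 1 had 22.3 RPKM of Mdm2, with the next at 17.5 RPKM. Ex3 liver 4 had 8.04 RPKM of Phlda3, with the next at 4.28 RPKM. Wild-type AAV liver 3 had 0.145 RPKM of Cdkn2a, which is 1 read, with the others at 0.

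Effects of MYC and of MYC Ex3 against each arm's own controls differed between tumours and AAV livers by the test of the difference itself. For MYC this held for Mdm2 (-0.83, limma adjusted p 0.0356) and Phlda3 (-2.52, adjusted p 0.000445). That Mdm2 call was lost with RPKM as deposited (limma adjusted p 0.0947) and among keratin-free libraries (0.138). It was also lost when certain single libraries were left out. The arms differ in Cre driver, tissue, time and control treatment too. For MYC Ex3 it held for Mdm2 (-0.94, limma adjusted p 0.006), Phlda3 (-2.79, adjusted p 2.37e-05) and Sesn2 (-1.06, adjusted p 0.0152).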

How the results depend on the processing

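Of 2597 values of the 10 genes under alternatives, 2530 kept their side of the threshold and, where called, their direction, 42 lost a call, 25 gained one and 0 called values reversed. In MYC against wild type 5 genes were called among keratin-free livers, where Mdm2, Ccng1 and Sesn2 lost theirs. In MYC Ex3 tumours against 4-OHT livers 3 were called with a filter at 5 RPKM, which Eda2r and Zmat3 do not pass. There 2 were called against the 4-OHT livers with S15 titles, 8 with sample weights and 8 with only the groups compared. For these other settings the cause was not tested. The MYC difference of effects called 1 gene with RPKM as deposited and 1 among keratin-free livers. Shares of all genes called under these alternatives are not given here, so the counts cannot be set against them. In the main fit of MYC Ex3 tumours against 4-OHT livers 60.6% of all genes were called. Pairs of genes that passed the permutation test numbered 7 without the 2 livers farthest from the median. They numbered 0 among keratin-free and 0 among keratin-bearing livers, where few orderings meant that a pair could hardly pass. Sesn2 with Zmat3 reversed to r -0.07 among keratin-bearing livers, and the cause was not tested.

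Leaving out 1 library at a time gave 7 to 8 called genes in MYC against wild type, 8 to 8 in MYC Ex3 against wild type, 7 to 8 in MYC Ex3 against Ex3, and 0 to 0 in Ex3 against wild type, in MYC Ex3 against MYC livers and in the interaction. It gave 3 to 6 in MYC tumours (6 without MYC tumour 2), 4 to 7 in MYC Ex3 tumours and 0 to 3 between the tumours (3 without MYC tumour 1). It gave 1 to 5 and 2 to 5 in the differences of effects for MYC and MYC Ex3. The shares of all genes called in the same fits are not given here.

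No paired analysis was possible because the labels give the groups no shared replicate numbers, and the numbers used here follow the order of the records. Depth limits Cdkn2a, with at most 2 reads in an AAV liver, and 3 tumours a group limit the tumour comparisons.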
